A study of Mus musculus with 6 samples.

Results

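The genes described here are doublecortin (Dcx) and 7 other genes known from immature neurons, Dclk1, Sox4, Sox11, St8sia2, St8sia4, Stmn1 and Tubb3, which make up 8 of the 26264 gene symbols in the files. Dcx was chosen by its values in the comparison of stressed with control mice, where its groups did not overlap. The other 7 were picked by name to ask whether genes of neuronal immaturity went the way of Dcx, at a time when results of the whole table were known. Dcx is therefore given as a description. The tissue was the basolateral amygdala, an input region for fear and anxiety circuits, taken from 3 male mice under chronic restrained stress (CRS) and 3 male controls without stress (Ctrl). Each library is a biological replicate of ribosomal RNA-depleted total RNA. Strain, age and the length of the stress were not stated in the labels. CRS libraries held 9859449 to 10179081 counts in genes and Ctrl libraries 9870139 to 10233706, so that 1 CPM (a count scaled to library size and TMM factors) stands for 9.74 to 10.1 reads in CRS and 9.79 to 10.3 reads in Ctrl.

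Doublecortin binds and stabilises microtubules in neurons that migrate and extend their first processes, and it is widely used as a marker of newly made or still immature neurons. In the adult rodent brain it labels neuroblasts of the neurogenic zones, and it also labels immature neurons that were born before adulthood, which have been described in piriform cortex and amygdala. Such cells usually carry polysialic acid on the adhesion protein NCAM, express the SoxC transcription factors, and contain the neuronal beta-tubulin of Tubb3. Several of the 8 genes are also active in mature neurons, so a level in whole tissue is not a count of immature cells. In bulk tissue fewer cells of a type and less RNA per cell cannot be told apart.

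Dcx was higher in every CRS library than in any Ctrl library. It stood at 74.6, 64.4 and 67.1 CPM in CRS 1 to 3, against 50.3, 54.7 and 55.4 CPM in Ctrl 1 to 3. The reads behind these levels were 727, 639 and 676 in CRS and 506, 564 and 542 in Ctrl. The lowest CRS library, CRS 2, was above the highest Ctrl library, Ctrl 3. The mean was 68.7 ± 5.32 CPM in CRS and 53.5 ± 2.76 CPM in Ctrl (SD, n = 3 each), a fold of 1.29 with a 95% interval from 1.13 to 1.46, or a log2 fold change of 0.36 ± 0.08 (SE). In edgeR's quasi-likelihood test over all 14739 tested genes this had an adjusted p of 0.997, and 0 genes (0%) passed the threshold of 0.05. Dcx ranked 8 among all tested genes by unadjusted p. The coefficient of variation of Dcx was 7.74% in CRS and 5.17% in Ctrl, where counting error alone gives 3.71 to 3.96% in CRS libraries and 4.21 to 4.45% in Ctrl libraries.

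Dcx was the single gene among the 8 whose groups did not overlap, which is 12.5% of them, and it is the gene that this very pattern chose. Over all tested genes 8.28% had groups that did not overlap, 3.8% with all CRS libraries higher and 4.48% with all CRS libraries lower. Without adjustment 496 genes (3.37%) had a p under 0.05 in edgeR's test, 196 higher and 300 lower in CRS, and Dcx was the only one of the 8 among them. Of the other 7 genes, 4 had a log2 fold change above 0 and 3 below it, with a median of 0.11, against a median of -0.0044 over all tested genes. Among all tested genes, 48.4% had values above 0. The range of those 7 ran from -0.24 for St8sia2 to 0.19 for Dclk1, and 0 of the 7 had groups apart.

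**Figure D1:**
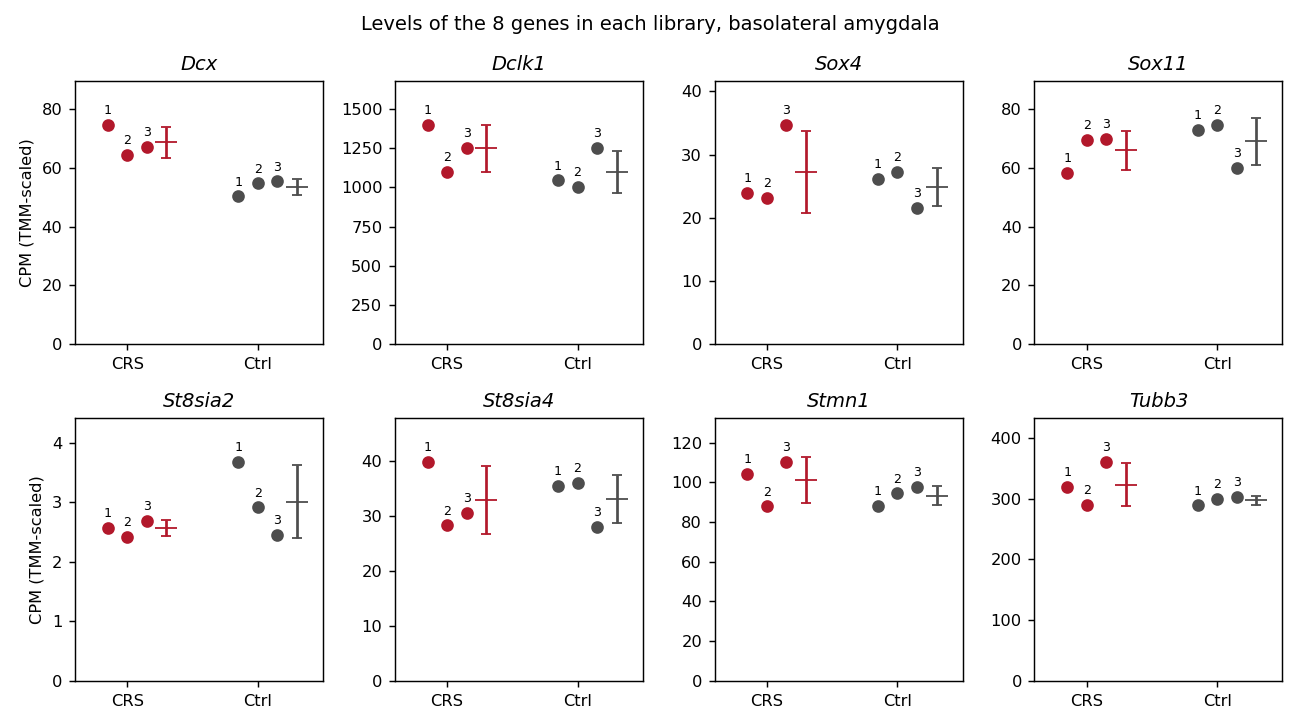
Level of each of the 8 genes in CPM (y axis, from 0) in the 3 CRS libraries (red) and the 3 Ctrl libraries (grey). Numbers mark replicates, and the bars to the right of each group give the mean and SD (n = 3). The red and grey points are apart for Dcx, which was chosen by that pattern, and they overlap for the 7 others.

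Dclk1 encodes the doublecortin-like kinase, which joins doublecortin domains to a protein kinase domain and is made in mature neurons as well. It had 1398, 1097 and 1253 CPM in CRS 1 to 3, against 1044, 1001 and 1249.9 CPM in Ctrl 1 to 3. The groups overlapped because Ctrl 3 lay above CRS 2 and only just below CRS 3. The log2 fold change of Dclk1 was 0.19 ± 0.12 (SE), with a 95% interval from -0.08 to 0.45 (adjusted p = 0.997, edgeR). The gene gives both long forms and forms that lack the doublecortin domains or the kinase domain, and counts per gene do not separate them. Within each library the ratio of Dcx to Dclk1 reads, which does not depend on scaling, was -4.23, -4.09 and -4.22 on the log2 scale in CRS and -4.38, -4.19 and -4.50 in Ctrl, and these ranges overlapped.

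The remaining doublecortin family genes had log2 fold changes below 0, none past the test. Dclk2, the close relative of Dclk1, was at 79.2 ± 3.86 CPM in CRS and 82.6 ± 8.58 CPM in Ctrl, with a log2 fold change of -0.06 ± 0.09. Dclk3, a kinase gene with strong expression in striatum, was at 27.2, 61.1 and 70.0 CPM in CRS 1 to 3 and 77.8, 67.1 and 55.3 CPM in Ctrl 1 to 3, so CRS 1 stood apart at the low end. Its log2 fold change was -0.34 ± 0.36. Dcdc2a, known from cilia, had -0.26 ± 0.29. Over the 5 tested family genes, 2 had values above 0 and 3 below it, with a median of -0.06.

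Sox4 and Sox11 are the SoxC transcription factors that switch on neuronal genes, Tubb3 and Dcx among them, as progenitors leave the cell cycle. Sox4 had 23.9, 23.1 and 34.7 CPM in CRS 1 to 3, against 26.1, 27.2 and 21.5 CPM in Ctrl 1 to 3. CRS 3 was the highest library, and CRS 1 and CRS 2 lay below Ctrl 1 and Ctrl 2. For Sox4 the log2 fold change was 0.13 ± 0.17 (95% interval -0.28 to 0.53), and it was -0.09 without CRS 3. Sox11 had 58.3, 69.5 and 69.9 CPM in CRS 1 to 3, against 72.8, 74.6 and 59.9 CPM in Ctrl 1 to 3. CRS 1, the library with the most Dcx, had the least Sox11. The log2 fold change of Sox11 was -0.07 ± 0.11 (95% interval -0.32 to 0.18), and the third SoxC gene, Sox12, stood at 0.02 ± 0.11. All 7 genes other than Dcx had adjusted p-values of 0.997 to 0.999 in edgeR's quasi-likelihood test.

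St8sia2 and St8sia4 encode the polysialyltransferases that build polysialic acid on NCAM, of which St8sia2 is the more active in development and St8sia4 the main enzyme of the adult brain. St8sia2 was close to the filter on low counts, with 25, 24 and 27 reads in CRS 1 to 3 and 37, 30 and 24 reads in Ctrl 1 to 3. The exact Poisson 95% intervals, which cover counting error only, ran from 15.4 to 39.3 reads over the CRS libraries and from 15.4 to 51.0 reads over the Ctrl libraries. Its log2 fold change was -0.24 ± 0.23 with a wide 95% interval, from -0.77 to 0.29, and counting error alone gives 16.4 to 20.4% per library. St8sia4 had 39.9, 28.3 and 30.6 CPM in CRS 1 to 3, against 35.4, 36.0 and 28.0 CPM in Ctrl 1 to 3. CRS 1 was the highest and Ctrl 3 the lowest library, and the means of 32.9 ± 6.17 CPM in CRS and 33.1 ± 4.44 CPM in Ctrl differed by far less than their spread. Its log2 fold change was -0.0083 ± 0.15 (95% interval -0.36 to 0.35).

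The proteins that carry polysialic acid and the enzymes that remove it also had overlapping groups. Ncam1, the main carrier, was at 599, 478 and 426 CPM in CRS 1 to 3 and 443, 427 and 480.1 CPM in Ctrl 1 to 3, with a log2 fold change of 0.15 ± 0.12. CRS 1 was high, and the other CRS libraries lay within the Ctrl range or just below it. The adhesion gene Cadm1 was at 0.18 ± 0.11, the guidance receptor gene Nrp2 at 0.16 ± 0.32 and the sialyltransferase gene St8sia3 at -0.10 ± 0.10. The sialidase genes Neu1 and Neu4 were at 0.02 ± 0.09 and 0.03 ± 0.11. Over this list of 8 genes, 5 had values above 0 and 3 below it, with a median of 0.03.

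Stmn1 encodes stathmin, which binds tubulin and takes microtubules apart, and which in mice has been tied to fear memory in the amygdala. It had 104, 87.8 and 110.4 CPM in CRS 1 to 3, against 88.1, 94.4 and 97.5 CPM in Ctrl 1 to 3. CRS 2 was the lowest library of all, below every Ctrl library, and the other CRS libraries were the highest. For Stmn1 the log2 fold change was 0.11 ± 0.09 (95% interval -0.10 to 0.32). Stmn2, a stathmin of growing axons, was at 199 ± 20.6 CPM in CRS and 169 ± 21.0 CPM in Ctrl (0.24 ± 0.11), Stmn3 at 0.11 ± 0.07 and Stmn4 at 0.03 ± 0.08. All 4 stathmin genes had values above 0, against 48.4% of all tested genes, with a median of 0.11, and 0 of 4 had groups apart. The list was highest in CRS 3, and genes of a list can move together, so the count is a description. Without CRS 3 Stmn4 was at -0.039.

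Tubb3 encodes the beta-tubulin of neurons, which appears early in their development and stays on in the adult. It had 319, 289.7 and 361 CPM in CRS 1 to 3, against 289, 299 and 303 CPM in Ctrl 1 to 3. CRS 1 and CRS 3 lay above the Ctrl range, while CRS 2 lay inside it. On the log2 scale the fold change of Tubb3 was 0.12 ± 0.09 (95% interval -0.08 to 0.32). All 7 tubulin genes listed had values above 0, with a median of 0.09, led by Tubb2a at 0.18 ± 0.09 (95% interval -0.02 to 0.38), and 0 of 7 had groups apart. Among all tested genes, 48.4% had values above 0. This list too was highest in CRS 3, so the count is a description. Leaving out a single library turned the sign of Tubb2b (-0.0047 without Ctrl 3), Tubb4a (-0.0024 without CRS 1) and Tubb4b (-0.02 without CRS 2). Tubb2b was at 0.07 ± 0.08, Tubb4a at 0.08 ± 0.12, Tubb4b at 0.05 ± 0.10, Tubb5 at 0.09 ± 0.08 and Tuba1a at 0.10 ± 0.09. Tubulin genes resemble each other closely, so their counts can share or lose reads.

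**Figure D2:**
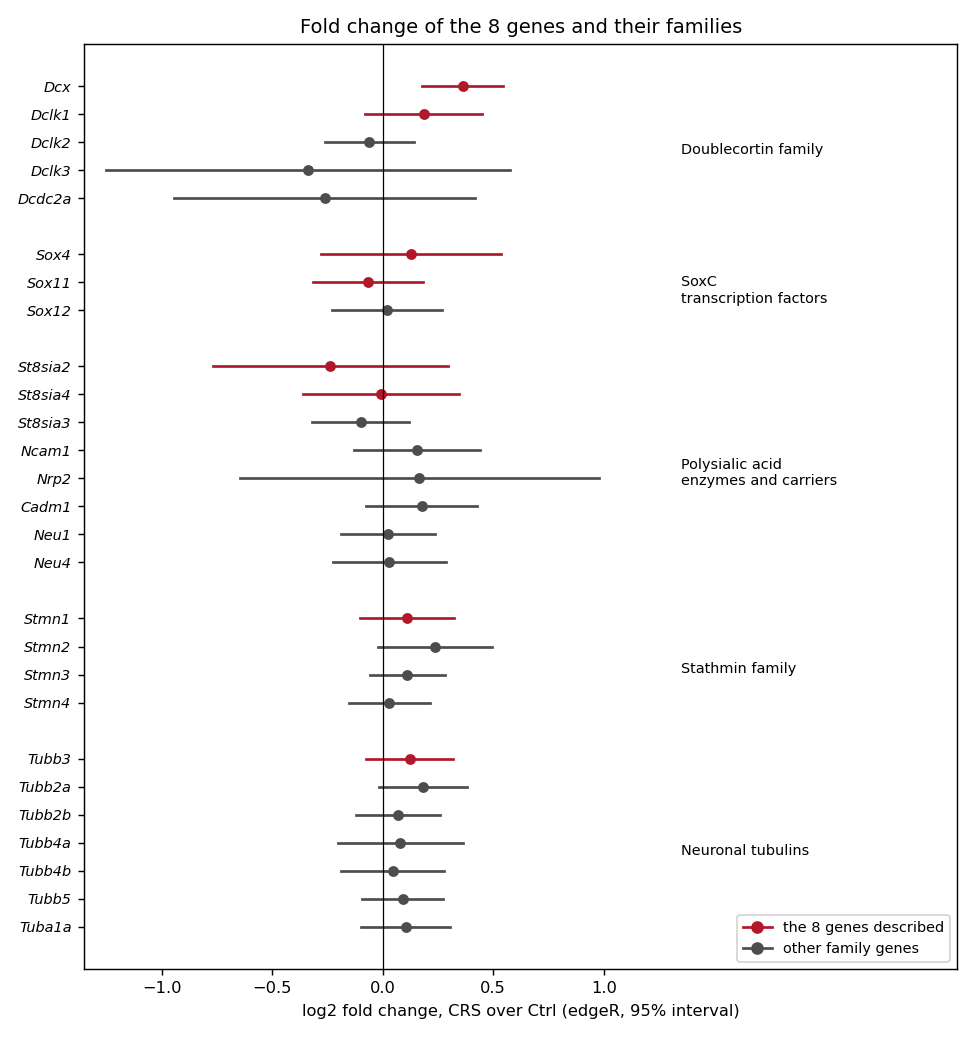
Log2 fold change of CRS over Ctrl (x axis, edgeR) for the 8 genes (red) and the other genes of their families (grey), grouped by family down the page. Points are estimates and lines 95% intervals. The interval of Dcx, from 0.18 to 0.55, is the only one shown that does not reach 0. Dcx was chosen by this contrast, and its adjusted p was 0.997 in edgeR's quasi-likelihood test.

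The likeness of each gene to Dcx over the 6 libraries was measured as the root mean square difference between log2 CPM values, each taken relative to the gene's own mean. A gene that did not vary at all would score 0.196. Dclk1 was nearest, at 0.131, with 3.04% of the 14620 ranked genes nearer, followed by Stmn1 at 0.154 (7.8% nearer) and Tubb3 at 0.159 (9.57%). St8sia4 at 0.252, Sox4 at 0.275, Sox11 at 0.288 and St8sia2 at 0.352 were farther from Dcx than a flat profile, with 56.0 to 79.6% of genes nearer. So the microtubule genes lay nearer to Dcx than the SoxC and polysialyltransferase genes, as a description of 6 libraries that include the ones that chose Dcx. The measure also takes in counting error, so the order does not reflect likeness alone. That error was 0.857 to 0.984% per library for Dclk1 and 16.4 to 20.4% for St8sia2. For Stmn1 it was 3 to 3.39%, and for Sox11 3.61 to 4.2%. A ratio with Dcx on top carries over the separation that chose Dcx, and over 14699 other tested genes 61.7% had such ratios higher in every CRS library, so the ratios are given as a description. The ratio of Dcx to Stmn1 reads was -0.47, -0.45 and -0.72 on the log2 scale in CRS and -0.81, -0.79 and -0.82 in Ctrl, without overlap. For Tubb3 it was -2.09, -2.17 and -2.43 in CRS and -2.52, -2.45 and -2.45 in Ctrl, also without overlap, with CRS 3 close to the Ctrl values. The ratio to Sox11 was barely apart, at -0.111 in CRS 2 against -0.113 in Ctrl 3, and the ratio to St8sia2, apart as well, rests on 24 to 37 reads of that gene. Those to Sox4, St8sia4 and Dclk1 overlapped, which makes 4 of 7 apart, no larger a share than over all genes.

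The 5 genes with the nearest profile to Dcx, named by that measure alone, were B230303A05Rik, Lhx2, Paox, Cyp4f15 and Aacs, at 0.0402 to 0.0541. B230303A05Rik was at 18.1 ± 1.09 CPM in CRS and 14.1 ± 0.219 CPM in Ctrl. Lhx2, a LIM-homeodomain transcription factor of forebrain development, was at 38.1 ± 2.01 CPM in CRS and 29.7 ± 2.77 CPM in Ctrl. Aacs, acetoacetyl-CoA synthetase, was at 62.4 ± 5.72 CPM in CRS and 51.6 ± 2.01 CPM in Ctrl. The cytochrome P450 gene Cyp4f15 was at 15.8 ± 1.83 CPM in CRS and 12.6 ± 1.09 CPM in Ctrl, and the polyamine oxidase gene Paox at 1.72 ± 0.221 CPM in CRS and 1.33 ± 0.0328 CPM in Ctrl. Likeness to Dcx brings the separation of groups with it, so their fold changes carry no separate weight.

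**Figure D3:**
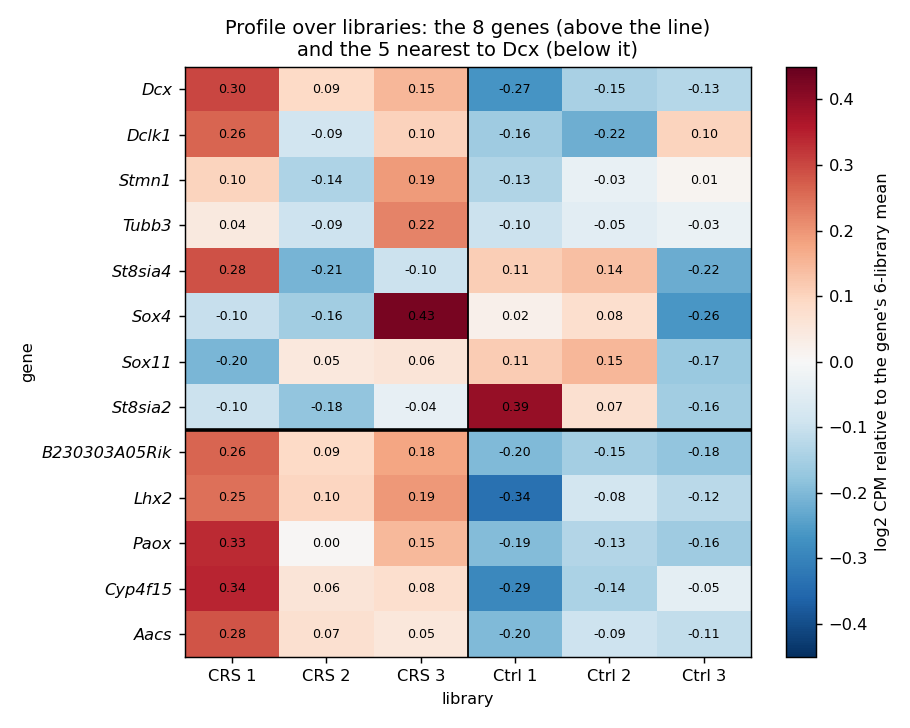
Log2 CPM relative to each gene's mean over the 6 libraries (colour and printed value), with CRS libraries left of the vertical line and Ctrl libraries right of it. Rows above the horizontal line are the 8 genes in order of likeness to Dcx, and rows below it the 5 nearest genes of all. Dcx is above its mean in all 3 CRS libraries and below it in all 3 Ctrl libraries, a pattern that none of the 7 other genes above the line has. The choice of Dcx by groups that did not overlap brings this pattern with it.

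The promoters of Dcx and of its nearest companions with an entry, Dclk1 and Tubb3, are shown because SoxC factors are known to act on neuronal promoters and because Sox4 and Sox11 did not share the profile of these genes. Windows of 300 bases, from 250 before to 50 after the start, were read from RefSeq on build GRCm38.p6 and matched 7 of the 8 genes by symbol, Stmn1 excepted, in 9 windows. Capitals mark the SOX motif letters ACAAAG or ACAATG on either strand.

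Dcx, chrX:143933075-143933374, minus strand: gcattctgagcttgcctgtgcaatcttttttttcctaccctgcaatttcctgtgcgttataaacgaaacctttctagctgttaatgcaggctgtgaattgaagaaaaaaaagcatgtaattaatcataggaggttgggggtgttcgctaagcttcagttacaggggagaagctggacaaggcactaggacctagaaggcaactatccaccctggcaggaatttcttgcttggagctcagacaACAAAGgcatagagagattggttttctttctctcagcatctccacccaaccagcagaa

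Dclk1, chr3:55242114-55242413, plus strand: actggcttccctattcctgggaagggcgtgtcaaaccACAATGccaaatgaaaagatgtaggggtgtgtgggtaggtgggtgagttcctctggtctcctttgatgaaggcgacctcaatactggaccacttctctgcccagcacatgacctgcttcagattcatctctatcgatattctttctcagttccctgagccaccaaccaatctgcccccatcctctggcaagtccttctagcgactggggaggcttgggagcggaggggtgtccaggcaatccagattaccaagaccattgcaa

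Tubb3, chr8:123411303-123411602, plus strand: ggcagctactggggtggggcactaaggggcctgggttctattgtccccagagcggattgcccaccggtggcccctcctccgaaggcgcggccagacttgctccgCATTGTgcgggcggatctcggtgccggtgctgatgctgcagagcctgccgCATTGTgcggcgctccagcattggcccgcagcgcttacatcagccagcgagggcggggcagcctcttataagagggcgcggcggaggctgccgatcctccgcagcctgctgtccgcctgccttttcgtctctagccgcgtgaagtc

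The Dcx window holds ACAAAG at -8 from the start, the Dclk1 window ACAATG at -213, and the Tubb3 window ACAATG on the opposite strand at -146 and -96. For Dcx and Dclk1 the window printed is the one that holds a string. The Dcx windows, chrX:143933075-143933374 and chrX:143933170-143933469, overlap, so not all windows are separate. Another window of each of these genes holds neither letter string. At least 1 of these strings was in 3 of the 9 windows of the matched genes, against 28.6% of the 32851 windows of the table. The E-box letters CAGCTG or CATCTG, which neurogenic basic helix-loop-helix factors bind, were in the windows of Sox4, Sox11 and St8sia4, also 3 of 9, against 30.6% of all windows. No E-box overlapped a SOX string in these windows. Letters of this length are common, and a match is not a site.

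Genes that act on doublecortin or guide migrating neurons were mostly close to 0. Doublecortin is phosphorylated by Cdk5 and its activator p35 and by JNK, and reelin signals through Vldlr, Lrp8 and the adaptor Dab1 to position migrating neurons. Of 17 tested genes of this list, 11 had values above 0 and 6 below it, with a median of 0.03. The 3 with the smallest unadjusted p were Dab1, Reln and Map1b. Dab1 had 143, 97.7 and 123 CPM in CRS 1 to 3, against 74.6, 89.7 and 96.9 CPM in Ctrl 1 to 3, a log2 fold change of 0.47 ± 0.15 (adjusted p = 0.997, edgeR). Its groups did not overlap, though CRS 2 and Ctrl 3 were close. Dab1 was the only gene of the 17 (5.88%) with groups apart, no larger a share than the 8.28% of all tested genes. Reln was at 439, 210.5 and 323 CPM in CRS 1 to 3 and 221, 214 and 257 CPM in Ctrl 1 to 3, with CRS 2 the lowest of all 6 (0.49 ± 0.27). Single libraries moved these values: without CRS 1 Reln was at 0.21 and Map1b at 0.05, without CRS 2 Map1b was at 0.19, and without Ctrl 1 and Ctrl 3 in turn it was at 0.07 and 0.18. With CRS 1 and Ctrl 1 both left out Dab1 was at 0.24 and Reln at 0.18. Map1b, a microtubule-associated protein of growing axons, was at 0.12 ± 0.09.

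Among 24 other genes of immature neurons, 22 were tested, of which 16 had values above 0 and 6 below it, with a median of 0.07. The 3 with the smallest unadjusted p were Dpysl5, Prox1 and Elavl4. Dpysl5, a collapsin response mediator, was at 36.6 ± 5.51 CPM in CRS and 30.4 ± 1.93 CPM in Ctrl (0.27 ± 0.12), with CRS 3 below Ctrl 1. Elavl4, an RNA-binding protein of neurons, was at 145, 99.5 and 131 CPM in CRS 1 to 3 and 101, 102 and 107 CPM in Ctrl 1 to 3 (0.27 ± 0.13), with CRS 2 below all Ctrl libraries. Prox1, a homeobox gene of granule cells and of some interneurons, was lower in all CRS libraries, at 15.7, 16.1 and 13.5 CPM, than in Ctrl libraries, at 22.4, 16.9 and 17.0 CPM (-0.31 ± 0.14). The other gene with groups apart was Foxp2, named after its values were seen, at 11.4, 32.5 and 32.8 CPM in CRS 1 to 3 and 54.5, 34.3 and 34.1 CPM in Ctrl 1 to 3. Foxp2 was lowest in CRS 1 and highest in Ctrl 1, the same ends as the striatal markers below, and a link was not tested. Without CRS 1 Dpysl5 was at 0.14 and Elavl4 at 0.16, without CRS 2 Elavl4 was at 0.42, and without Ctrl 1 Prox1 was at -0.16. These 2 of 22 are 9.09% of the list, near the 8.28% of all tested genes, and 0 were called.

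Genes of progenitors and of the cell cycle had mostly values below 0. Of 16 listed, 13 were tested, of which 3 had values above 0 and 10 below it, with a median of -0.14. None was called. Mcm2, of the replicative helicase, was at 3.83 ± 0.737 CPM in CRS and 4.97 ± 0.509 CPM in Ctrl (-0.37 ± 0.20). Egfr, a growth factor receptor of progenitors and glia, was at 25.5, 28.9 and 28.2 CPM in CRS 1 to 3 and 30.3, 35.1 and 29.9 CPM in Ctrl 1 to 3 (-0.21 ± 0.10), without overlap, and at -0.12 without Ctrl 2. No gene of this list had an unadjusted p under 0.05.

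Markers of neighbouring tissues differed between libraries, and those of striatum, myelin and GABAergic neurons had their ends in the libraries at the ends of the Dcx range. The 12 striatal and central amygdala markers summed to 158, 688 and 759.5 CPM in CRS 1 to 3 and 1395, 722 and 832 CPM in Ctrl 1 to 3. CRS 1, with the highest Dcx, was the lowest library, and Ctrl 1, with the lowest Dcx, was the highest, and 1 of the 12 genes was at 0 in a library. Mature oligodendrocyte markers (9 genes) had the same ends, at 1654, 2383 and 1862 CPM in CRS 1 to 3 and 3353, 2323 and 2117 CPM in Ctrl 1 to 3. GABAergic neuron markers (7 genes) also had these ends, at 668, 739.9 and 789.8 CPM in CRS 1 to 3 and 1081, 829 and 773 CPM in Ctrl 1 to 3. All 12 striatal, all 9 oligodendrocyte and 5 of the 7 GABAergic markers had log2 fold changes below 0. With CRS 1 and Ctrl 1 both left out, Dcx was at 64.4 and 67.1 CPM in CRS 2 and 3, against 54.7 and 55.4 CPM in Ctrl 2 and 3, and the log2 fold change was 0.26. Dclk1 then had a log2 fold change of 0.06. That CRS stayed above Ctrl for Dcx followed from its choice by groups that did not overlap.

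The choroid plexus, whose epithelium makes transthyretin (Ttr), also differed between libraries in its markers. Its 9 markers summed to 13.7, 6101 and 24.6 CPM in CRS 1 to 3 and 2389, 4233 and 41.9 CPM in Ctrl 1 to 3, and none was at 0 in any library. Among the libraries with much of it, Dcx was at 64.4 CPM in CRS 2, against 50.3 and 54.7 CPM in Ctrl 1 and 2. Among those with little, Dcx was at 74.6 and 67.1 CPM in CRS 1 and 3, against 55.4 CPM in Ctrl 3. Dclk1, in the same way, was at 1097 CPM in CRS 2, against 1044 and 1001 CPM in Ctrl 1 and 2, and at 1398 and 1253 CPM in CRS 1 and 3, against 1249.9 CPM in Ctrl 3. With the libraries of high choroid plexus level left out, the log2 fold change of Dcx against the single remaining Ctrl library was 0.36. Dcx was chosen for groups that did not overlap, so CRS lies above Ctrl in any such subset. These values of Dcx are therefore a description. All of the described genes except Sox11 were lowest among CRS libraries in CRS 2, the CRS library with high choroid plexus markers. For Sox4 and St8sia2 the difference from CRS 1 was small. The part of these tissues in the values of Dcx and of the 7 other genes was not tested.

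**Figure D4:**
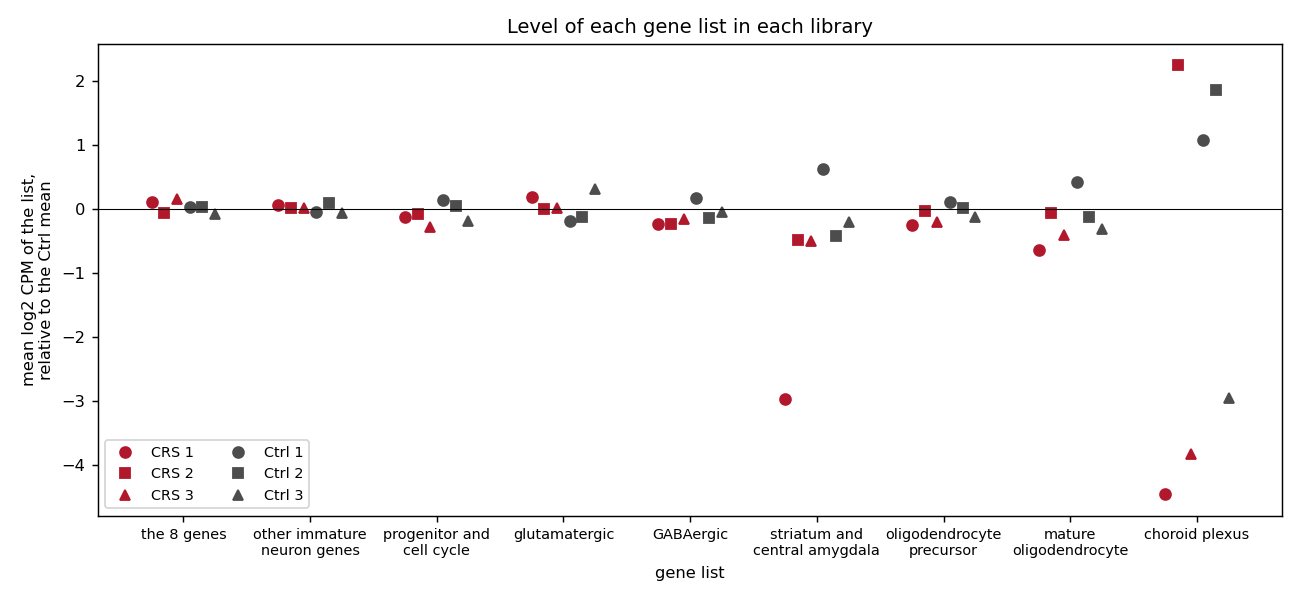
Mean log2 CPM of each gene list relative to the Ctrl mean (y axis) in each of the 6 libraries, with CRS in red and Ctrl in grey. The 8 genes lie between -0.07 and 0.16 in every library, while choroid plexus markers range from -4.45 to 2.25 and striatal markers from -2.96 to 0.63.

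The labelled tissue was checked by its glutamatergic markers. Slc17a7, the vesicular glutamate transporter of cortical-type neurons, was at 973 to 1184 CPM in CRS and 719 to 1085 CPM in Ctrl. The 9 markers of glutamatergic neurons had a median log2 fold change of 0.14, with 8 of 9 above 0, and were highest in Ctrl 3 and lowest in Ctrl 1. Of the 10 mature neuron markers, 6 had values above 0, with a median of 0.06. Oligodendrocyte precursor and newly formed oligodendrocyte markers, from cells that can also express SoxC genes, had 3 of 10 values above 0 and a median of -0.10. All 7 astrocyte markers had values below 0, with a median of -0.22, and they summed to 1062, 961 and 1011 CPM in CRS 1 to 3 and 1113, 1103 and 1059.6 CPM in Ctrl 1 to 3. Of the markers of microglia, endothelium and meningeal fibroblasts (6 each), 4, 5 and 5 had values below 0.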

How the data were processed

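RNA was measured in 6 basolateral amygdala libraries, 3 CRS and 3 Ctrl, grouped by their labels. The authors deposited raw read counts per gene symbol, 1 file per library. The submitters' processing notes name build mm39, HTSeq 0.13.5, STAR 2.7.7a, edgeR 3.42.4 and FastQC 0.12.1 with no role for any of them. Annotation and strand setting: not given in the sources used here. Reads assigned to no gene (53.0 to 57.4% per library), ambiguous reads (0.162 to 0.194%) and reads with several alignments (6.97 to 8.16%) stayed out of library sizes and tests. In RefSeq on GRCm38.p6, used for names only, Dclk1 overlaps Gm25132, Gm31443 and Gm9831, Sox4 overlaps Gm46405 and St8sia4 overlaps Gm30431, so reads of these pairs may mix. Libraries of each group differed beyond sampling noise (chi-square per gene at least 2.82 for any pair).

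The test used edgeR 4.0.16 under R 4.3.3 (filterByExpr, minimum count 10, minimum total 15; TMM; robust quasi-likelihood F test, CRS against Ctrl, without a block; Benjamini-Hochberg over all 14739 tested genes, threshold 0.05). Alternatives used DESeq2 1.42.0 and limma 3.58.1. SEs are the log2 fold change over the root of F. Relative log2 levels use a prior count of 2. The procedure was tested on counts simulated without differences in dissected tissue, so that test does not cover the tissue differences between these libraries. Members, gene lists, named genes (the 8 members, the families, 3 genes of each wider list by unadjusted p, and 5 nearest profiles among genes with a mean CPM of at least 1) and alternatives were chosen with earlier results of these data known. Some items that the naming rule gives are not reported here. P-values weigh the difference between groups against the spread within groups, which is estimated with information shared over genes. The design has 3 mice a group.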

Additional observations from a re-analysis of the deposited data

How the results depend on the processing

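The log2 fold change of Dcx stayed above 0 in all 17 alternatives, from 0.26 (without CRS 1 and Ctrl 1) to 0.41 (without CRS 2), and was not called in any of them (adjusted p 0.761 to 1). Dcx was chosen for groups that did not overlap, so leaving libraries out could hardly turn its sign. The constant sign therefore carries no separate weight. The replicate number as a block gave 0 called genes and 0.36 for Dcx. Deviations from the group means had r = -0.318, 0.53 and 0.277 between same-numbered libraries, and -0.638 to 0.484 between unlike numbers. With 3 libraries a group these values cannot show whether the numbers pair the mice, and the labels do not say. The genes called, 0 in the quasi-likelihood test and in limma-voom, were 4 with the likelihood ratio test and 2 with DESeq2, none a member, and 0 to 1 when each replicate was left out, where the 1 arose without Ctrl 3.

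The number of the 8 genes with groups apart was 1 to 4 when each replicate was left out. It was 4 without CRS 2 (Dcx, Dclk1, Stmn1 and Tubb3, against 22.3% of all genes) and 4 without Ctrl 3 (Dcx, Dclk1, Sox11 and St8sia2, 23.3%). It was 7 with the high choroid plexus libraries left out, where 1 Ctrl library remained, its spread is assumed to be that of CRS, and 61.6% of all genes were apart. Of 41 named genes 25 kept their sign throughout.

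Signs turned for 16 of the named genes, none called; the cause was not tested. They include genes with sizeable values in the full set of libraries (Dclk3 -0.34, Dcdc2a -0.26, St8sia2 -0.24, Nrp2 0.16 and Ncam1 0.15). Without CRS 1 and Ctrl 1 these were Sox11 (0.052), Dclk2 (0.011), Dclk3 (0.10), Ncam1 (-0.0045) and Tubb4a (-0.081). Without the high choroid plexus libraries they were Sox11 (0.10), St8sia2 (0.10), St8sia4 (0.33), Dclk2 (0.044), Sox12 (-0.13), St8sia3 (0.038), Neu1 (-0.03) and Tubb4a (-0.12). With each replicate left out, values ran from -0.086 to 0.238 (Sox4), -0.16 to 0.013 (Sox11), -0.17 to 0.094 (St8sia4), -0.121 to 0.028 (Dclk2), -0.54 to 0.018 (Dcdc2a), -0.055 to 0.086 (Sox12), -0.151 to 0.011 (St8sia3), -0.09 to 0.383 (Nrp2), -0.027 to 0.108 (Neu1), -0.039 to 0.097 (Stmn4), -0.0047 to 0.14 (Tubb2b), -0.0024 to 0.22 (Tubb4a) and -0.02 to 0.15 (Tubb4b).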

Other observations

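Some genes of neurogenesis had too few reads to be tested and are given as reads. Igfbpl1, a gene of newborn neurons, had 3, 5 and 10 reads in CRS 1 to 3 and 13, 10 and 9 reads in Ctrl 1 to 3. Draxin, a guidance gene of immature neurons, had 3 reads in each CRS library and 5, 9 and 5 reads in Ctrl 1 to 3. Eomes, the factor of intermediate progenitors, summed to 3 reads in CRS and 3 reads in Ctrl. The mitotic genes Cdk1 and Ccnb1 summed to 13 and 6 reads in CRS, and to 18 and 8 reads in Ctrl. Draxin was lower in every CRS library than in any Ctrl library, at counts too low for the filter, and the other 4 genes overlapped between groups. Without the filter on low counts, 7.8% of all genes had groups apart in either direction.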
